A study of Mus musculus with 4 samples.

Results

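The regions described here are the 1194 stretches of mouse chromosome 9 that had an ATAC-seq peak in at least 2 of 4 libraries. The whole series held 23116 such regions. They were found by joining peaks of the 4 libraries that overlapped by at least 1 bp. Another 695 joined regions of chromosome 9 had a peak in 1 list and were not followed. Chromosome 9 was chosen because earlier results of these data showed its regions lower in knockout cells, so the knockout and wild-type values below are a description of that contrast and carry no test. The libraries came from 10T1/2 cells, a mouse embryonic fibroblast line, and 2 (KO 1 and KO 2) carried a CRISPR-Cas9 knockout of Ranbp2 while 2 (WT 1 and WT 2) were wild type. All knockout cells descended from 1 clone, which the design text says was grown from a single sorted cell and made with 1 guide, whereas no clonal step is given for the wild-type cells. The labels do not say that the 2 libraries of a genotype came from separate cultures, so the spread between them may be technical.

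ATAC-seq uses a transposase that cuts and tags DNA where nucleosomes leave it exposed, so a peak marks an open promoter, enhancer or other accessible site. RANBP2 forms the cytoplasmic filaments of the nuclear pore, where it holds the Ran GTPase and helps attach SUMO to proteins. Promoters of widely used genes are usually open in all cell types, whereas sites away from promoters differ more between cells. In bulk libraries, fewer cells with an open site and a less open site per cell cannot be told apart.

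Promoter sequences are shown for 5 genes whose RefSeq start lies in or within 1 kb of a region that the authors' deposited table gives as wild-type enriched. They were picked after their values were seen, from 7 such genes with a stretch that could be printed. Cish was found in wild-type lists alone, Setd2, Pkm and Scamp2 ranked lower in both knockout libraries than in both wild-type libraries, and Herpud2 did not. Each is the stretch before the RefSeq start that lies outside every protein-coding gene span, read 5′ to 3′ on the gene's strand from RefSeq promoters of GRCm38.p6. Cish is chr9:107296409-107296658 on the plus strand, Setd2 chr9:110532347-110532499 plus, Pkm chr9:59656326-59656575 plus, Scamp2 chr9:57560694-57560943 plus and Herpud2 chr9:25151814-25152031 minus. Capitals mark matches to a GC box (GGGCGG) or a CCAAT box (CCAAT) on either strand, and overlapping matches run together.
Cish: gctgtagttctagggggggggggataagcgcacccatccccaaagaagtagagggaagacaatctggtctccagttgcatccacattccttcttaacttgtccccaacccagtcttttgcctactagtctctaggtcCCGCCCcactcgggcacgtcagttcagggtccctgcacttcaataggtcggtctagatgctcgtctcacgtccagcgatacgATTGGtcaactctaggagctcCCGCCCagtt
Setd2: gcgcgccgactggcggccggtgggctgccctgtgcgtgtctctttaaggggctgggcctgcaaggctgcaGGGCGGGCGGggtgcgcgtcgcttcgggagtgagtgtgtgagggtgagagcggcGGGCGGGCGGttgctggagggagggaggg
Pkm: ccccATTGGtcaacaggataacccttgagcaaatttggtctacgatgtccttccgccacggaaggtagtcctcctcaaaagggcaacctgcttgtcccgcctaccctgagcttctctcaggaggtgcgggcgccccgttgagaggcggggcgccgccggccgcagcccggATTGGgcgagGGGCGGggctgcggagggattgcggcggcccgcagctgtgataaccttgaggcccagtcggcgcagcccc
Scamp2: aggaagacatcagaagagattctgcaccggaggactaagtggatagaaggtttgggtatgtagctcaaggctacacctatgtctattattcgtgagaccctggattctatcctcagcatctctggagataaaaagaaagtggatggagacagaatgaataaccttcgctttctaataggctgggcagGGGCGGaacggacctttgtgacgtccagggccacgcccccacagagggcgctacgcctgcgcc
Herpud2: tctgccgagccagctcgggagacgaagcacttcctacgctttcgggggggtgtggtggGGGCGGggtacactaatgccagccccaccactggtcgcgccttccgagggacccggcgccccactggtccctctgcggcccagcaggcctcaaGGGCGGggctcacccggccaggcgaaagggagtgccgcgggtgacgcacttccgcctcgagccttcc

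The printed stretches held 2 GC boxes and 1 CCAAT box for Cish, 4 GC boxes for Setd2, 1 GC box and 2 CCAAT boxes for Pkm, 1 GC box for Scamp2 and 2 GC boxes for Herpud2. Of the 2 not printed, Nradd held 3 GC boxes and Gpx1 held neither motif, with a GC content of 42.0%. Counted in bases from the RefSeq start, the peak summit lay at -20 for Cish, -217 for Setd2, -228 for Pkm, -8 for Scamp2 and -131 for Herpud2. Over all 21263 RefSeq promoters of protein-coding genes, 46.2% of the 300-base windows held a GC box and 38.2% a CCAAT box. A match is a description of the letters and not evidence of binding.

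Chromosome 9 took a smaller part of the knockout peak lists than of the wild-type lists. It held 635 of 13429 autosomal peaks in KO 1 and 1074 of 23433 in KO 2, against 1752 of 32695 in WT 1 and 1043 of 17955 in WT 2. These are shares of 4.73% (Wilson 95% interval 4.38 to 5.10) in KO 1 and 4.58% (4.32 to 4.86) in KO 2, against 5.36% (5.12 to 5.61) in WT 1 and 5.81% (5.48 to 6.16) in WT 2. The genotypes did not overlap, and the means were 4.66% ± 0.103 in knockout and 5.58% ± 0.318 in wild type (SD, n = 2 libraries each), a difference of -0.928 percentage points. All knockout cells come from 1 clone, so the loss of Ranbp2 and any other difference of that clone, the number of chromosome 9 copies among them, cannot be told apart here. Among the 19 autosomes this was the most negative difference, followed by -0.806 points on chromosome 13 and -0.787 points on chromosome 10. In all, 7 of the 19 had both knockout shares below both wild-type shares. The files hold no read counts, so depth is unknown and the intervals cover counting error only.

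The smaller share held at gene ends and away from them. A gene end here means the 1 kb on each side of the first or last base of a protein-coding gene span, so starts and 3′ ends both count. Of all peaks at gene ends, chromosome 9 held 5.10% in KO 1 and 5.30% in KO 2, against 5.60% in WT 1 and 5.75% in WT 2. Of all other peaks it held 4.47% and 4.23% in the knockout libraries, against 5.26% and 5.85% in the wild-type libraries. The mean difference was -0.474 points at gene ends and -1.20 points elsewhere, and no library of either genotype crossed into the other's range.

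**Figure D1:**
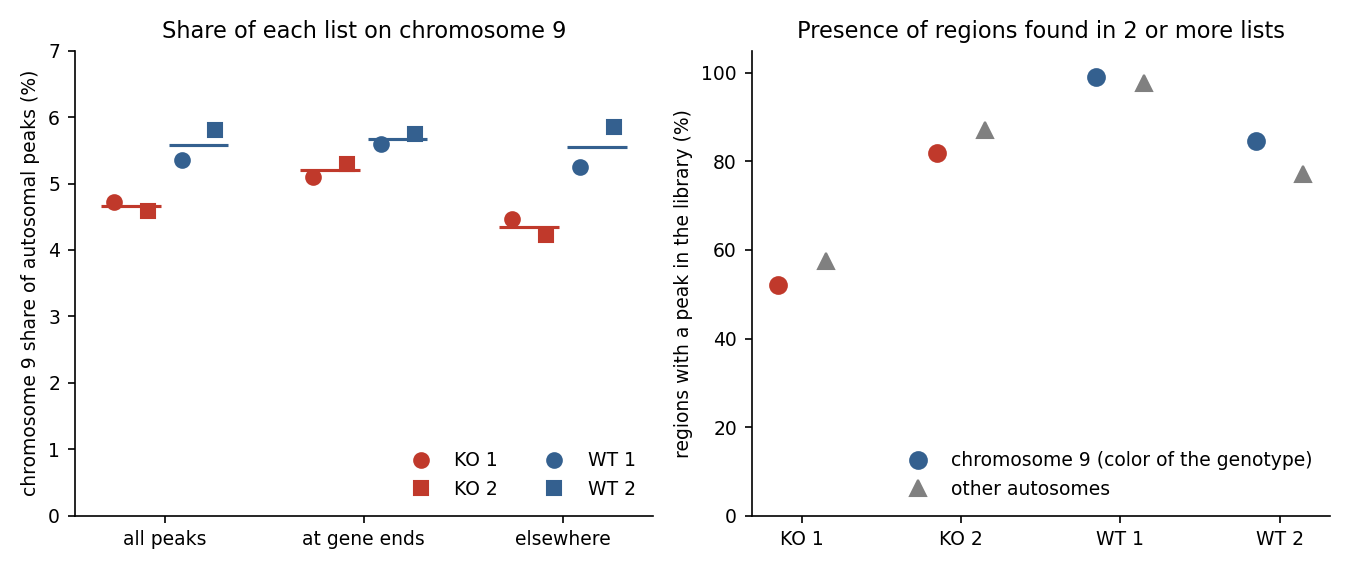
Left, the share of autosomal peaks that lies on chromosome 9 in each library, for all peaks, peaks at gene ends and other peaks, with a line at the mean of the 2 libraries of a genotype. Right, the share of regions found in at least 2 lists that had a peak in each library, on chromosome 9 (circles) and on the other autosomes (triangles). The knockout libraries lie below the wild-type libraries in all 3 classes on the left, and chromosome 9 lies below the other autosomes in both knockout libraries and above them in both wild-type libraries on the right.

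Of the 1194 regions, 557 (46.6%) were found in all 4 lists, 288 in 3 and 349 in 2. On the other autosomes 47.6% were found in all 4. The regions just inside the rule, with 2 lists, had a median best -log10 q of 16.2, and those just outside it, with 1 list, had 8.95. WT 1, the longest list, held 337 of those 349 and 570 of the 695. By position, 445 regions (37.3%) lay at gene ends and 768 (64.3%) inside gene spans, and 436 lay within 1 kb of a RefSeq transcription start. Of the 1201 protein-coding genes of the chromosome, 461 had a region at a gene end.

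A peak lay at 622 of the regions in KO 1 and 977 in KO 2, against 1182 in WT 1 and 1009 in WT 2. These are 52.1% and 81.8% in the knockout libraries, against 99.0% and 84.5% in the wild-type libraries. List length moves these shares, so each was divided by the share for the other autosomes in the same library. That ratio was 0.907 in KO 1 and 0.941 in KO 2, against 1.01 in WT 1 and 1.09 in WT 2. Chromosome 9 regions were thus missing more often than other regions in both knockout libraries and less often in both wild-type libraries. The rule enters this ratio. Regions that met it through the 2 wild-type lists alone, 16.3% here and 10.9% on the other autosomes, lack a knockout peak by construction. The mean ratio differed by -0.129 between knockout and wild type. The difference was -0.0558 with at least 3 lists, -0.197 with at least 1 and -0.0284 without WT 2.

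Regions found in both libraries of 1 genotype and in neither of the other were mostly wild type. There were 9 such regions for knockout (0.754%, with 1.64% on the other autosomes) and 195 for wild type (16.3%, with 10.9% on the other autosomes). None of the 9 knockout regions lay at a gene end, and on the other autosomes 0.211% of gene-end regions were of this kind. At gene ends lay 45 of the 195 wild-type regions. The 45 are 10.1% of gene-end regions (5.81% on the other autosomes), and the other 150 are 20.0% of regions elsewhere (13.7% on the other autosomes). With all lists cut to the length of the shortest, the counts were 24 for knockout and 96 for wild type of 789 regions, against backgrounds of 7.17% and 8.13%, so both counts depend on list length.

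The best-ranked wild-type regions of this kind were near genes of several functions. The region at the start of Hykk, which encodes hydroxylysine kinase, at 54917031-54917324 had a -log10 q of 61.3 in WT 1 and 32.7 in WT 2 and no peak in either knockout list. Others lay inside Bsn (a presynaptic scaffold), Dapk2 (a death-associated kinase) and Tln2 (a talin that couples integrins to actin), at the starts of Aph1c (a gamma-secretase subunit) and Cish, 43 kb from Tgfbr2 (a TGF-beta receptor) and 52 kb from Smad3 (its signal transducer). The other 2 of the 10 lay over 100 kb from a protein-coding gene. The 9 knockout regions were weaker, and among them were regions inside or within 100 kb of Cep70, Mcam, Cdv3, Lipc, Aqp9, Dock6 and Hexa. The first of them, inside Cep70 (a centrosomal protein) at 99304349-99304495, had a -log10 q of 10.9 in KO 1 and 10.4 in KO 2.

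Peak strength was compared by rank. The 10647 autosomal regions with a peak in all 4 lists were ranked in each library by the authors' -log10 q, as percentiles with 100 the strongest, and the shift of a region is its mean knockout rank minus its mean wild-type rank. The median rank of the 557 chromosome 9 regions was 47.7 in KO 1 and 50.3 in KO 2, against 55.8 in WT 1 and 57.8 in WT 2. The other autosomes had median ranks of 50.2 and 50.0 in knockout and 49.6 and 49.6 in wild type. Chromosome 9 regions sat below the other autosomes in KO 1, level with them in KO 2 and above them in both wild-type libraries.

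The median shift was -4.63 percentile points on chromosome 9 and -0.294 on the other autosomes. Taken pair by pair, the median differences were -4.71 for KO 1 minus WT 1, -4.65 for KO 1 minus WT 2, -3.76 for KO 2 minus WT 1 and -3.40 for KO 2 minus WT 2. Within a genotype they were -0.0376 for KO 1 minus KO 2 and -0.977 for WT 1 minus WT 2, so each pair across genotypes differed more than either pair within one. Both knockout ranks were below both wild-type ranks at 223 of 557 regions (40.0%, with 23.7% on the other autosomes). The reverse held at 92 regions (16.5%, with 23.0% on the other autosomes). Chromosome 9 had the third most negative median of the 19 autosomes, after chromosome 13 at -6.03 and chromosome 10 at -5.29, with chromosome 15 at -4.45 and chromosome 19 at -4.27 close behind.

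The size of the shift depended on the measure ranked. With the authors' fold enrichment in place of -log10 q, the median shift was -0.409 on chromosome 9 and -0.0294 on the other autosomes, and 138 regions (24.8%, with 21.9% on the other autosomes) had both knockout ranks below both wild-type ranks, while 102 (18.3%, with 22.1%) had both above. Chromosome 9 was then seventh in the order of autosomes. Median peak widths also differed between the genotypes, at 166 and 169 bp in knockout and 183 and 174 bp in wild type on chromosome 9, and at 165 and 167 bp in knockout and 181 and 176 bp in wild type elsewhere on the autosomes. Their part in the rank shift was not tested.

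**Figure D2:**
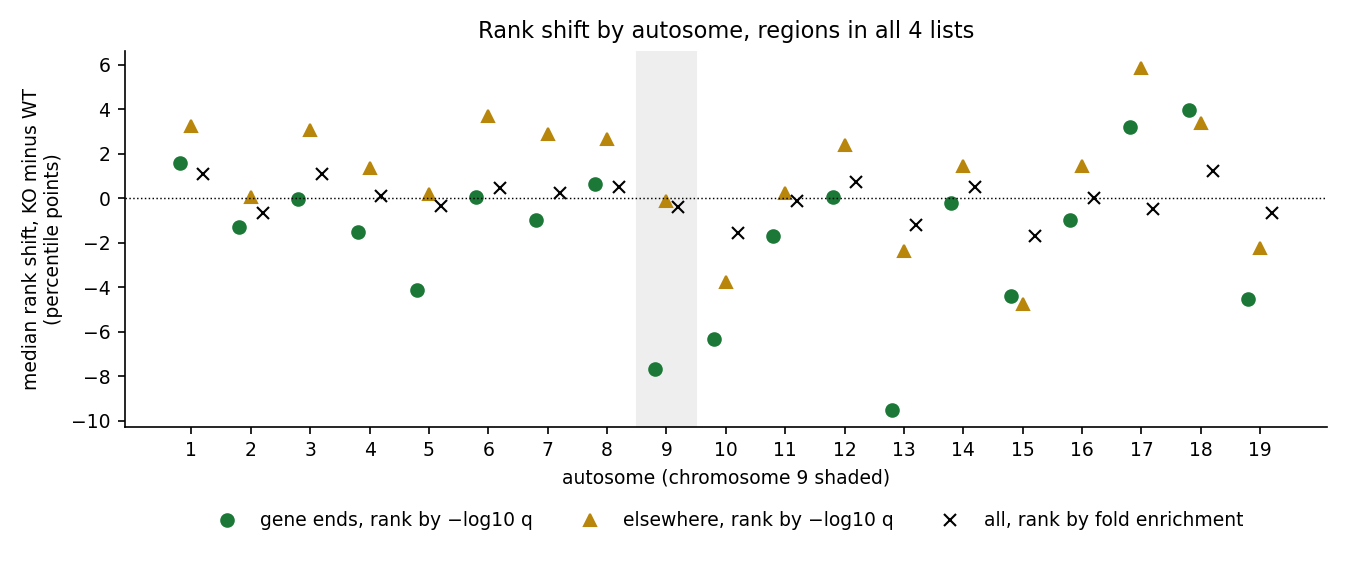
Median rank shift (KO minus WT, in percentile points) for each autosome, over regions with a peak in all 4 lists, at gene ends (circles) and elsewhere (triangles) by -log10 q, and over all regions by fold enrichment (crosses). Chromosome 9 is shaded. Its gene-end value of -7.67 is low beside those of most autosomes, its value elsewhere is -0.107, and by fold enrichment all autosomes lie between -1.70 and 1.21.

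The shift was greater at gene ends than elsewhere with all 4 libraries, by -7.57 points, but the gap was -2.48 without KO 1. At the 269 gene-end regions in all 4 lists, the median rank was 48.0 in KO 1 and 52.6 in KO 2, against 63.7 in WT 1 and 63.3 in WT 2. Their median shift was -7.67, with -1.27 at gene ends of the other autosomes. Both knockout ranks were below both wild-type ranks at 134 of them (49.8%, with 24.7% on the other autosomes) and above at 15 (5.58%, with 16.7%). By fold enrichment the gene-end shift was -3.71, with -1.04 on the other autosomes, and the count was 80 (29.7%, with 22.5%).

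Away from gene ends, the 288 regions had a median shift of -0.107 and 89 (30.9%, with 22.9% on the other autosomes) had both knockout ranks lower and 77 (26.7%, with 28.8%) both higher. A cluster of 46 regions at the very start of the assembled chromosome, described below, makes up 41 of the 288. Without it the remaining 247 had a median shift of -3.97. The gap between gene ends and elsewhere was -7.57 points over all regions and -3.68 when the cluster was left out before ranking, with -2.13 on the other autosomes. Regions inside genes but not at their ends had a median of -4.28 over 128 regions, and regions outside genes -3.28 over 119. Gene-end regions with no RefSeq start within 1 kb had a median of -10.6, but these were only 34.

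**Figure D3:**
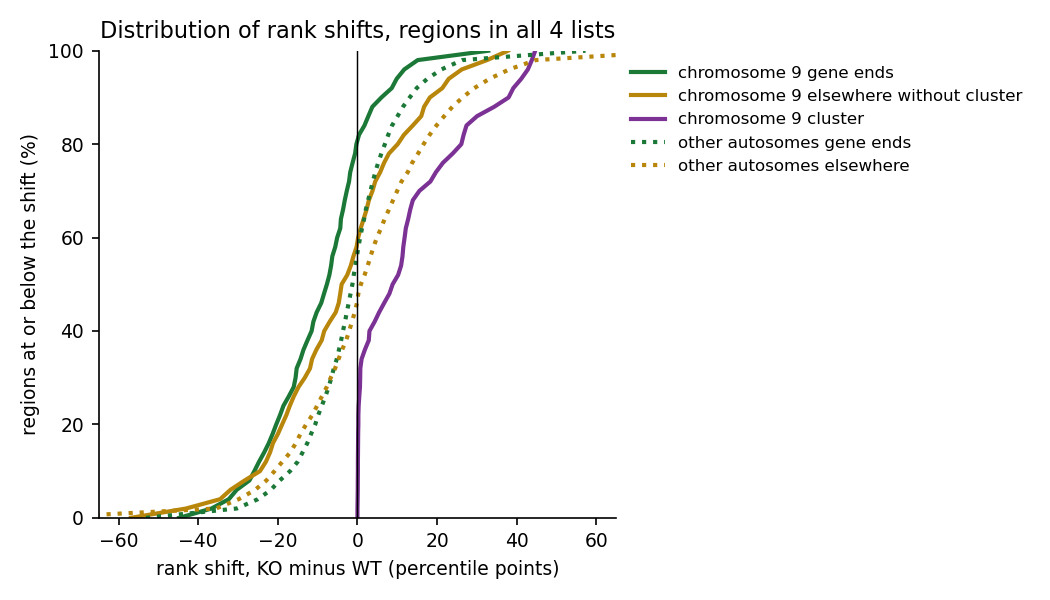
Cumulative distribution of the rank shift (KO minus WT, in percentile points) for regions with a peak in all 4 lists, on chromosome 9 (solid lines: gene ends, elsewhere without the cluster, and the cluster at the chromosome start) and on the other autosomes (dotted lines). The chromosome 9 gene-end line lies left of the dotted gene-end line over most of its length, with medians of -7.67 and -1.27, and the cluster lies at or right of 0.

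The lower ranks were found at weak and strong regions. The autosomal regions were split into 4 bins of mean rank over the libraries, and the cluster was left out. The median shift on chromosome 9 was -4.33 in the weakest bin, -12.4 in the next, -7.16 in the one above it and -2.53 in the strongest. On the other autosomes the bins lay between -1.0 and 0.794. Ranks near the top of a list can move little, and the strongest bin ran from -19.7 to 17.2.

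Along the chromosome the pattern was spread over nearly all of its length. The chromosome was divided into 25 windows of 5 Mb from its first base, and 23 held at least 10 of the regions. In 19 of the 23, both knockout shares of autosomal peaks were below both wild-type shares (26.5% of windows on the other autosomes), and in none were both above (21.8%). The ratio of the mean knockout share to the mean wild-type share had a median of 0.820 over the windows and ran from 0.468 in window 10 (45 to 50 Mb) to 1.41 in window 1. The 4 windows in which the genotypes overlapped were numbers 1, 5, 19 and 21.

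Ranks gave a map of mostly the same sign, but the size of the shift did not follow the share ratio window by window. Window 5, with a share ratio of 0.991, had a median shift of -7.98 over 53 regions. Window 10, with the lowest share ratio, had 1.13 over only 7 regions. Of 18 windows with at least 10 regions in all 4 lists, 17 had a median shift below 0 (49.7% of windows on the other autosomes), and in 16 the median was below 0 in all 4 knockout and wild-type pairs. The most negative was window 18 (85 to 90 Mb) at -13.5 over 17 regions, and the least was window 1 at 6.90 over 44. Ranked by fold enrichment, 13 of the 18 were below 0, between -9.75 and 0.951. Gene ends had a more negative median than other regions in 10 of the 14 windows with at least 5 of each.

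**Figure D4:**
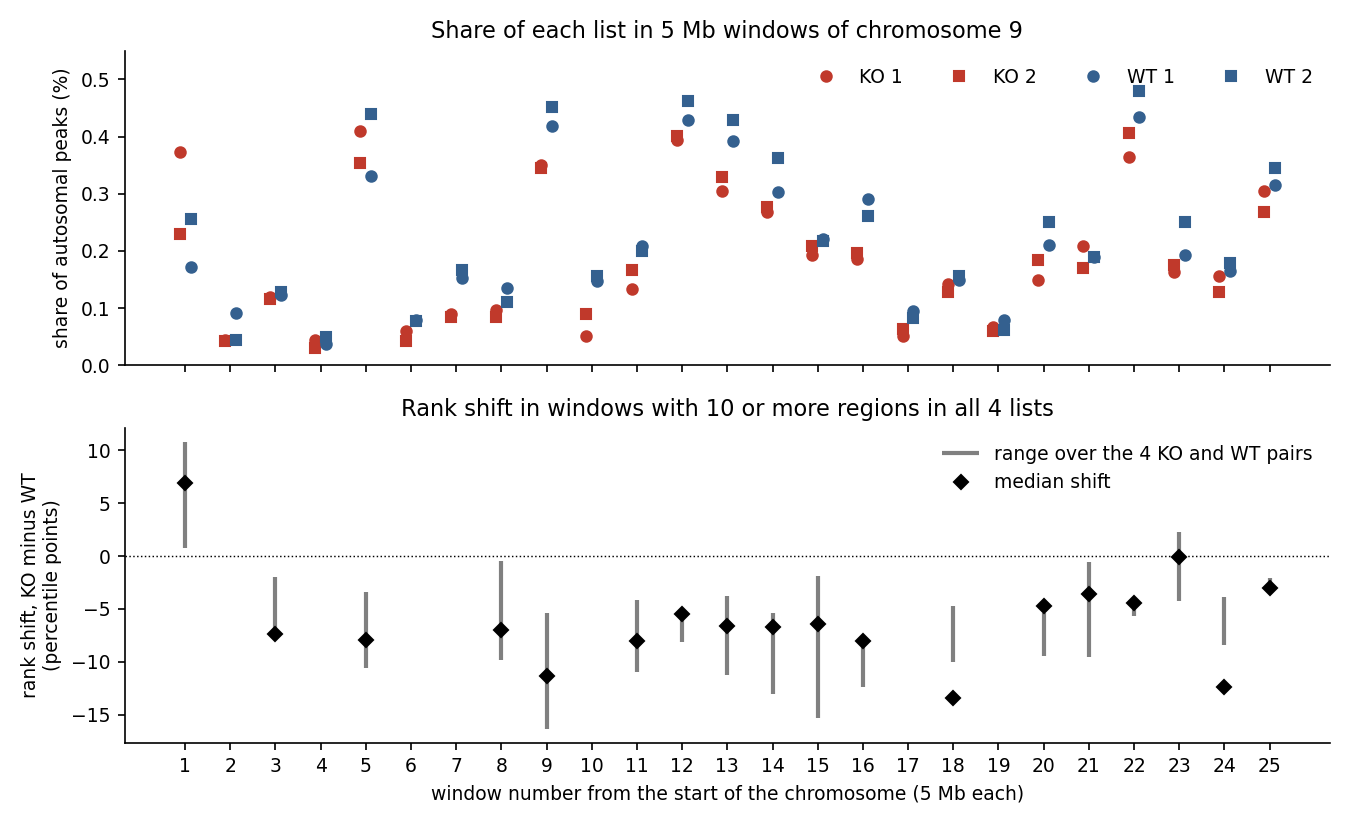
Top, the share of each library's autosomal peaks in each 5 Mb window of chromosome 9. Bottom, the median rank shift (KO minus WT, in percentile points) in windows with at least 10 regions in all 4 lists, with the range of the medians of the 4 single pairs of libraries, which the median of the averaged shifts can fall outside. The knockout points lie below the wild-type points in 19 of 23 windows with at least 10 regions, and 17 of 18 median shifts lie below 0, the exception being window 1.

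Window 1 was set apart by a dense cluster. Its 46 regions lay between 3000007 and 3038241, within the first assembled bases of the chromosome at the centromere end, and the next region began at 3178481. The boundary was drawn after these positions were seen. The sequence of the cluster was not available, and whether its peaks mark open chromatin as elsewhere was not tested. The cluster had 45 peaks in KO 1 and 48 in KO 2, against 48 in WT 1 and 42 in WT 2, so it was present about equally in both genotypes.

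Its 41 regions in all 4 lists had high -log10 q with low fold enrichment. The median -log10 q was 101 in KO 1 and 119 in KO 2, against 115 in WT 1 and 74.1 in WT 2. The median fold enrichment was 3.71 and 3.53 in knockout, against 3.58 and 4.13 in wild type. For the other 516 regions, the medians of fold enrichment were 8.01 and 10.4 in knockout, against 14.4 and 11.9 in wild type. The cluster's median shift by -log10 q was 8.84. Both knockout ranks were higher at 38 of 41 regions (92.7%, with 23.0% on the other autosomes) and lower at none (23.7%). By fold enrichment its median ranks were 0.512 in KO 1 and 0.371 in KO 2, against 0.465 in WT 1 and 0.559 in WT 2. At the bottom of a ranking, ranks can move little. Its median shift by that measure was 0.0141. Both knockout ranks were higher at 3 regions (7.32%, with 22.1% on the other autosomes) and lower at 3 (7.32%, with 21.9%). With the cluster left out, the median shift of chromosome 9 was -6.20 by -log10 q and -1.96 by fold enrichment, and its shares of autosomal peaks were 4.41% and 4.39% in knockout, against 5.22% and 5.59% in wild type.

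The authors' deposited table of differential regions holds 189 knockout-enriched and 190 wild-type-enriched regions with no fold change or p-value. Of these, 3 knockout-enriched and 23 wild-type-enriched regions lay on chromosome 9, where 0.811% and 0.792% of the other autosomes' regions overlapped the 2 lists. Chromosome 9 was chosen on these lists, so nothing is read from the counts. None of the 3 knockout-enriched regions and 12 of the 23 wild-type-enriched ones lay at a gene end, with 37.3% of all 1194 regions there. Of the 23, 18 had a peak in all 4 lists and 2 (at Cish and inside Nmnat3) had none in either knockout library. In 15 of the 18, both knockout ranks were below both wild-type ranks. That order held at 40.0% of all chromosome 9 regions in all 4 lists and at 23.7% on the other autosomes. The list itself contrasts the 2 genotypes, so this order is partly set by how the list was made.

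Among those at promoters, Setd2 and Gpx1 lay well apart. At Setd2, which encodes the histone H3 lysine 36 trimethylase, the region at 110532087-110532491 ranked at 37.4 in KO 1 and 71.0 in KO 2, against 80.8 in WT 1 and 88.8 in WT 2. At Gpx1, a glutathione peroxidase, the region at 108338960-108339360 ranked at 23.2 in KO 1 and 50.8 in KO 2, against 67.3 in WT 1 and 71.5 in WT 2. Both show the same order of libraries, with KO 1 far below KO 2 and the wild-type libraries close together. At Pkm, the pyruvate kinase of glycolysis, the region at 59655990-59656574 ranked at 41.6 and 46.9 in knockout, against 69.0 and 73.7 in wild type, with fold enrichments of 7.37 and 9.35 in knockout, against 12.7 and 12.5 in wild type. The genotypes did not overlap in either measure.

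The Scamp2 promoter (a protein of secretory carrier membranes) at 57560861-57560992 ranked at 26.4 and 20.0 in knockout, against 40.3 and 49.5 in wild type. The Cish promoter, which belongs to a feedback inhibitor of cytokine signalling, at 107296527-107296771 had fold enrichments of 12.6 in WT 1 and 9.68 in WT 2 and no peak in the knockout lists. Lower knockout ranks were also found at the shared region of Cep57 and Fam76b, at the end of Tmem115 (a Golgi protein) and at the region of Nradd and Nbeal2. Several wild-type-enriched regions did not have that order, had it narrowly or could not be ranked. At Herpud2 the ranks were 71.9 and 62.1 in knockout, against 58.8 and 69.4 in wild type, and the genotypes overlapped. They overlapped too at Prdm10, a region 4.04 kb inside the gene span but at a RefSeq start, and at Igdcc3, while at 1110032A03Rik and Fdxacb1 the knockout ranks of 53.5 and 57.8 were below the wild-type ranks of 67.4 and 58.8 by a narrow margin. The regions at Parp3 with Rrp9, at Gm20783 and inside Dnm2 (dynamin) had no peak in KO 1.

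Other wild-type-enriched regions lay away from gene ends. The region 27.4 kb from Usp3, a histone deubiquitinase, at 66620557-66620931 ranked at 9.51 in KO 1 and 10.4 in KO 2, against 74.9 in WT 1 and 51.7 in WT 2. The region inside Anxa2, an actin- and membrane-binding annexin, ranked at 7.80 and 8.93 in knockout, against 56.2 and 28.9 in wild type. Averaged over KO 1 and KO 2, these were the lowest knockout ranks of the 18. A region at 61013207-61013476, 133 kb from the nearest protein-coding gene, ranked at 20.3 and 29.1 in knockout, against 81.0 and 68.0 in wild type. Regions near Tyk2 (a Janus kinase), inside Kirrel3 (an adhesion molecule), inside Sin3a (a co-repressor scaffold) and near Anapc13 (a subunit of the anaphase-promoting complex) also had both knockout ranks lower.

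The 3 knockout-enriched regions all lacked a peak in WT 2. The one nearest Thy1, a surface marker of fibroblasts, lay 60.6 kb from the gene at 43982388-43982824 and had fold enrichments of 6.79 in KO 1 and 6.89 in KO 2, against 5.39 in WT 1. The one inside Usp2, a ubiquitin protease, had 7.47 and 8.73 in knockout, against 6.11 in WT 1. The one inside Plxnb1, a semaphorin receptor, had 5.48 and 8.73 in knockout, against 4.13 in WT 1. In each, both knockout values were above the single wild-type value.

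**Figure D5:**
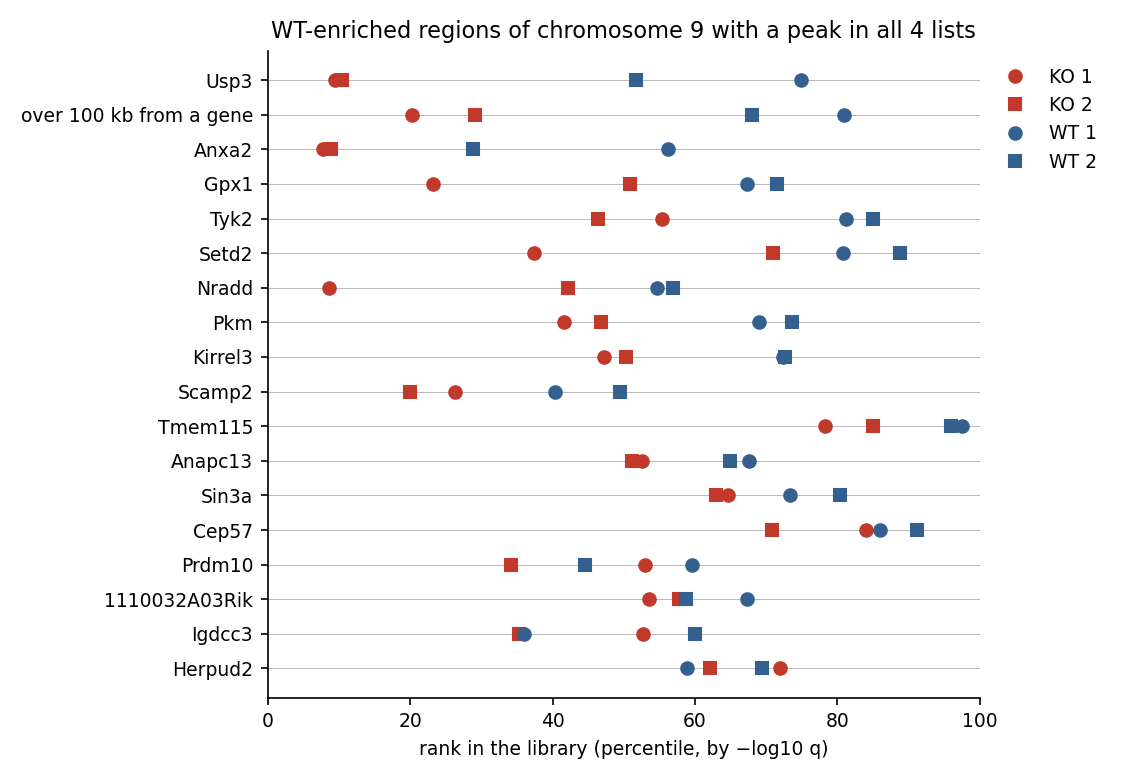
Percentile rank by -log10 q in each library for the 18 regions of chromosome 9 on the authors' wild-type-enriched list that had a peak in all 4 lists, named by the gene that contains or lies nearest each, from the most negative shift (top) to the least. Knockout points lie left of both wild-type points in 15 of the 18, and overlap them at Prdm10, Igdcc3 and Herpud2. The list contrasts the same genotypes, and 40.0% of all chromosome 9 regions in all 4 lists had that order.

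Over the chromosome 9 regions whose genotypes did not overlap, the most negative shift was at a site over 100 kb from any protein-coding gene, at 120739166-120740032. It ranked at 8.17 in KO 1 and 13.4 in KO 2, against 63.5 in WT 1 and 71.8 in WT 2. Among the 10 most negative were 4 promoters, those of Arid3b, Qtrt1, Ccdc84 and Tusc2. Arid3b, a DNA-binding protein, shifted by -44.8 and Qtrt1, the catalytic subunit of a tRNA-modifying enzyme, by -41.5. Ccdc84 shifted by -40.4 and Tusc2 by -39.8. The Tusc2 region also lies within 1 kb of an end of the Rassf1 span (both genes are described as tumour suppressors). Arid3b had fold enrichments of 7.60 and 11.9 in knockout, against 22.6 and 20.3 in wild type. Regions near Usp3 and Snx33, 82.3 kb from Tle3 (a Groucho co-repressor) and at 2 more sites far from genes made up the rest. Only regions whose genotypes did not overlap were eligible for these 10.

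Of the 10 highest shifts, 6 belonged to the cluster. The highest outside it were not at promoters except for 1. The region inside Cplx3 (a complexin of synapses) ranked at 62.4 and 49.8 in knockout, against 27.3 and 9.16 in wild type. The region inside Ets1, a transcription factor, ranked at 31.5 and 37.3 in knockout, against 0.850 and 1.50 in wild type. The region at the end of Hspb2, inside the span of its neighbour Cryab (both small heat shock proteins), ranked at 72.0 and 60.0 in knockout, against 35.2 and 31.0 in wild type. The others outside the cluster lay inside Rbms3, Fyco1, Clmp, Pfkfb4 and Msl2 and near Atp5l and Xcr1, of which only the one in Pfkfb4, a regulator of glycolysis, lay within 1 kb of a RefSeq start.

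The strongest regions of the chromosome were picked by their mean rank over the 4 libraries. They therefore ranked near 100 in each library by construction, and nothing about genotype is read from their small rank differences. The first, 29.3 kb from Rpusd4, had fold enrichments of 43.3 and 43.3 in knockout, against 42.0 and 45.9 in wild type. The second, 14.9 kb from Dpy19l2, had 75.6 and 74.7 in knockout, against 76.1 and 75.1 in wild type. Both stood at the top of the ranking in all 4 libraries. Promoters among the 10 strongest outside the cluster were those of Cdv3 and Cdkn2d, the second an inhibitor of cyclin-dependent kinases, which ranked at 92.8 and 94.7 in knockout, against 97.4 and 97.5 in wild type.

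Gene lists for pathways of fibroblasts and of general cell function named 113 genes of the chromosome, of which 69 had a region at a gene end and 48 had one in all 4 lists. At 24 of the 48 (50.0%, with 24.7% at gene ends of the other autosomes) both knockout ranks were below both wild-type ranks, and at 2, Hspb2 and Kif23, both were above (16.7% on the other autosomes). The median shift of the 48 was -8.15, beside -7.67 over all gene-end regions of the chromosome, so the listed genes lay close to the chromosome's own level. Myd88 and Acaa1a share a region and are both counted.

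The lists are small, and the counts below stand beside 49.8% lower and 5.58% higher over all gene-end regions of the chromosome. No difference between lists was tested. Of 19 signalling genes, 14 had a gene-end region and 9 had one in all 4 lists, and 7 of the 9 ranked lower in both knockout libraries, with none higher and a median shift of -15.6. The gene-end region of Tgfbr2, the type II TGF-beta receptor, ranked at 4.88 and 6.28 in knockout, against 44.8 and 30.1 in wild type. That of Smad3, which carries its signal to the nucleus, ranked at 15.5 and 57.2 in knockout, against 63.0 and 59.2 in wild type. Ctnnb1, which encodes beta-catenin, ranked at 5.17 and 39.8 in knockout, against 44.8 and 55.3 in wild type. The kinase genes Csk and Tyk2, the G protein gene Gnai2 and the adaptor gene Myd88 had the same order. Map2k1, which encodes the kinase MEK1, did not, with ranks of 78.1 and 73.9 in knockout, against 76.8 and 75.3 in wild type.

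For chromatin and transcription, 7 of 17 genes had a gene-end region, each of the 7 in all 4 lists, and 4 ranked lower in both knockout libraries with none higher and a median shift of -11.3. These were Arid3b, Setd2, Tle3 and Smarcc1, a subunit of the BAF remodelling complex. Smarca4, the ATPase of the same complex, ranked at 67.2 and 74.3 in knockout, against 58.6 and 69.1 in wild type, so the genotypes overlapped. Kmt2a, a histone H3 lysine 4 methylase, ranked at 32.2 and 78.7 in knockout, against 61.0 and 72.5 in wild type, and was spread most between the knockout libraries.

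Ribosome and translation genes had 6 of 8 with a gene-end region and 4 in all 4 lists, of which 2 ranked lower in knockout, with a median shift of -18.1. Rpsa, a protein of the small ribosomal subunit, ranked at 28.6 and 37.1 in knockout, against 59.5 and 68.0 in wild type. Metabolism and sterol genes had 11 of 12 and 7, of which 3 ranked lower and none higher, with a median of -6.77. Besides Pkm and Gpx1 this was Acaa1a.

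SUMO and ubiquitin genes had 9 of 13 with a gene-end region and 7 in all 4 lists, of which 3 ranked lower (Birc2, Usp2 and Ube4a) and none higher, with a median of -6.17. Pias1, a SUMO E3 ligase, ranked at 60.9 and 27.8 in knockout, against 39.1 and 31.3 in wild type. Cell cycle and DNA repair genes had all 10 with a gene-end region and 7 in all 4 lists, of which 3 ranked lower (Rassf1, H2ax and Cdkn2d) and 1 higher, with a median of -3.68. The higher one, Kif23, a kinesin of cytokinesis, ranked at 44.3 and 43.6 in knockout, against 36.5 and 33.8 in wild type.

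Contractile and matrix lists held few ranked regions. Of 13 contractile and actin genes, 7 had a gene-end region and 5 had one in all 4 lists, with 2 lower (Myo6 and Rhoa), 1 higher (Hspb2) and a median shift of 0.444. Myo6, a myosin that moves toward the minus end of actin, ranked at 6.70 and 10.9 in knockout, against 44.9 and 48.9 in wild type. Rhoa, a regulator of actin stress fibres, ranked at 87.0 and 92.1 in knockout, against 95.1 and 96.9 in wild type. Tpm1, a tropomyosin, overlapped at 49.7 and 57.2 in knockout, against 55.7 and 34.6 in wild type. Of 21 matrix and adhesion genes on the chromosome only 5 had a gene-end region, and 2 (Loxl1, a lysyl oxidase, and Dag1, which encodes dystroglycan) had one in all 4 lists, both with overlapping ranks and with a median shift of 2.38.

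Markers were read across the genome to check the cell type. Of 10 fibroblast markers, 6 had a peak at a gene end (3 in KO 1 and 4 in KO 2, against 6 in WT 1 and 6 in WT 2), among them Col1a1, Col1a2, Fn1 and Vim. Thy1, Pdgfra, Prrx1 and Col3a1 had none in 2 or more lists. Twist1 and Pdgfrb were found in WT 1 and WT 2 and in neither knockout library. None of 4 endothelial and none of 4 epithelial markers had one, and 1 of 7 neural (Ncam1) and 3 of 9 immune markers (Cx3cr1, Xcr1 and Camp) did. Xcr1 and Camp had a peak in all 4 libraries, and Cx3cr1 had the pattern of Twist1 and Pdgfrb, so that pattern was not limited to fibroblast markers. Among gene-end regions it held at 10.1% on chromosome 9 and 5.81% on the other autosomes. The part of marker differences in the chromosome 9 values was not tested.

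RefSeq promoters, each taking 250 bases before a start and 50 after it, were found for 1023 of the 1201 genes, and those of 393 genes overlapped one of the regions. Of these 393, 75.1% held a GC box and 41.7% a CCAAT box on either strand, against 32.9% and 38.3% of 630 promoters with no region. Among promoters with a region in all 4 lists, 130 had both knockout ranks lower, and 80.0% of these held a GC box and 53.1% a CCAAT box. Of 16 with both knockout ranks higher, 75.0% held a GC box and 31.2% a CCAAT box, and of 120 with overlapping ranks, 73.3% and 44.2% did. With these promoters in 3 groups by GC content, the median shift was -7.89 in the lowest group, -6.77 in the middle and -5.88 in the highest. The share with both knockout ranks lower was 47.3%, 58.6% and 40.9% in the same order, so it did not follow the medians. It was 48.1% over all chromosome 9 regions within 1 kb of a RefSeq start and in all 4 lists. These shares come from single promoters that lie side by side, so they describe the sets and are not tested.

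Comparisons of chromosome 9 with the other autosomes within a library do not set the genotypes against each other and were tested. Their values are still not free of the contrast on which the chromosome was chosen. Its knockout share differed by -0.474 points at gene ends and -1.20 points elsewhere, which changes the gene-end share by genotype. The 4 libraries come from 1 cell line and may not be independent. Of chromosome 9 peaks, 43.9% and 38.4% in knockout and 31.1% and 39.3% in wild type lay at gene ends, with 40.6% and 32.9% in knockout and 29.6% and 39.7% in wild type on the other autosomes. The difference was larger in both knockout libraries than in both wild-type libraries. Its mean was 2.45 percentage points ± 2.53 (SD, n = 4 libraries), higher on chromosome 9 in 3 of 4 libraries. It did not pass a two-sided exact paired permutation test (p = 0.25, where 4 libraries cannot reach 0.05). Median peak width differed by 0.75 bp ± 1.89 (SD, n = 4), also higher in 3 of 4, with an exact p of 0.625.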

How the data were processed

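The build was mm10, and MACS2, Bowtie2, cutadapt, DESeq2, DiffBind 2.2.12 and deepTools were used in an order and for steps not given here, per the submitters' processing notes. The authors deposited 1 peak list per library, with the summit's fold enrichment (a ratio over the library's local background), its -log10 q and a score. The lowest deposited -log10 q lay between 3.00 and 3.02 in the 4 lists. For differential regions the authors deposited 2 lists of positions alone, and no source used here gives the threshold behind them. The files contain no read counts and nothing between peaks, so depth is unknown and the amount of chromosome 9 DNA in each library was not measured.

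Peaks were joined where they overlapped by at least 1 bp, presence was scored per library, and ranks were recomputed among 10647 autosomal regions with a peak in all 4 lists, so that each library ranked the same regions. The ranking code recovered a planted chromosome difference when tested on simulated data. Gene spans and promoters came from RefSeq tables for GRCm38.p6, whose spans give no strand. Regions take the name of the protein-coding gene that contains them or else the nearest within 100 kb. Named were the regions of the differential lists, the 10 highest-ranked regions, the 10 most negative and 10 most positive shifts among regions whose genotypes did not overlap, the 10 best regions of 1 genotype only, each also without the cluster where it took places, and up to 4 genes per list. H2afx could not be matched apart from H2ax, and Mmp2 lies on another chromosome. The members, windows, gene lists and naming rule were chosen with earlier results of these data known. Alternatives changed list length, the -log10 q minimum, the rank measure, the overlap, the number of lists, window size, the gene-end distance and the libraries used. Python 3.11.15, numpy 2.4.6, pandas 2.3.3 and scipy 1.17.1 were used. With 2 libraries against 2, an exact permutation test cannot give a p below 0.333.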

Additional observations from a re-analysis of the deposited data

How the results depend on the processing

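Of 119 recomputed values, 90 kept their direction within the spread set for each, 27 moved and 2 reversed. Ranking by fold enrichment moved the chromosome's median shift, taken relative to the other autosomes, to -0.379 (-1.95 without the cluster) and the count of regions with both knockout ranks lower to 138 (136 without the cluster). The gap between gene ends and elsewhere became -3.79 by fold enrichment, -3.68 without the cluster, -3.92 with both, and -3.42 without the cluster at equal list length, where the relative shift was -6.24. Leaving out 1 library at a time gave differences in share of -1.15 to -0.703 points, presence ratios differing by -0.147 to -0.0284, relative shifts of -4.67 to -3.91, 278 to 405 regions with lower knockout ranks, gene-end gaps of -8.69 to -2.48 and 19 to 21 windows. Without KO 1 the regions number 806 and 405 (50.2%, with 36.2% on the other autosomes) had the knockout rank below both wild-type ranks, and the gene-end gap was -2.48. Without WT 2 the presence difference was -0.0284. Wild-type-only counts ran from 0 to 444 (42.0%, with 33.7% on the other autosomes) and knockout-only counts from 0 to 43 (5.0%, with 10.2%) over these settings, where a region needs 2 lists, so that a genotype with 1 library left gives 0 by construction, as does a minimum of 3 lists. At equal list length they were 96 and 24, with or without the cluster. The presence difference was -0.197 with regions of at least 1 list and -0.0558 with at least 3. With windows of 10 Mb, 10 of 13 had both knockout shares lower. The width difference reversed to -4.125 bp at equal list length and to -1.5 bp without the cluster as well. The alternatives without the cluster were chosen after seeing the data. Depth is unknown, so absence from a short list cannot be told from weak signal. The cause of these moves was not tested beyond the constructions named.

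No paired analysis was possible because the comparisons between genotypes carry no test and the labels do not say which libraries were prepared together. The library names give replicate 1 different numbers in knockout (2) and wild type (1). They give replicate 2 the same number, 3, in both. Whether KO 2 and WT 2 were prepared together was not tested.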
